A study of Mus musculus with 12 samples.

Results

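RNA from macrophages and from T cells, both purified out of lung tumours of mice given JQ1, was compared on a NanoString panel, which counts barcoded probes bound to each transcript without amplification. The comparison takes the 2 libraries labelled JQ1-treated macrophages and the 2 labelled JQ1-treated T cells, 4 of the 12 libraries of the study, over all 770 panel genes on log2(signal + 1). It asks what still separates the fractions of a tumour when T cell transcripts are close to background. The mice carried a KrasTrp53 tumour model on a mixed background, and all groups share this model, tissue and background. The same 2 fractions from mice given vehicle, 2 libraries each, were set beside them, and the 4 ricolinostat libraries, from mice given a histone deacetylase inhibitor, entered alternative fits alone. The labels give no dose, duration or age. Nothing in them ties the 2 libraries of a group to separate animals, and p-values here reflect library spread that may be purely technical.

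JQ1 blocks the bromodomains of BET proteins, which bind acetylated histones and help to keep enhancer-driven genes transcribed. Lung tumours of mice hold alveolar and recruited macrophages, which engulf particles and sense microbial products through Toll-like receptors, and T cells, whose receptor signals through the CD3 chains and the kinase Lck. Macrophages are known for Fc receptors, scavenger receptors and the C1q chains of complement, and the tumour cells themselves are epithelial.

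The label of the JQ1 T cell libraries was not borne out by their T cell transcripts, so fraction stands below for the label only. Of 32 measured T cell identity genes, such as the CD3 chains, Lck, Zap70 and the CD8 chains, 4 and 6 exceeded a signal of 20 in the JQ1 macrophage libraries and 10 and 10 in the JQ1 T cell libraries. Under vehicle 6 and 9 exceeded 20 in macrophage libraries and 30 and 32 in T cell libraries. Their median signal was 2.12 and 4.62 in JQ1 macrophage libraries, against 10.1 and 5.38 in JQ1 T cell libraries, and 3.93 and 5.03 against 268 and 207 under vehicle. Cd3e, which encodes CD3 epsilon, had 9.0 and 8.22 in JQ1 macrophage libraries and 4.42 and 1.55 in JQ1 T cell libraries, so the macrophage libraries were the higher at a level where no order can be read. Thy1 had 2.12 and 2.41 against 2.99 and 2.29, and Lck 1.0 and 1.01 against 18.7 and 20.9. In total 18 of the 32 genes stood at or below 20 in all 4 JQ1 libraries. In such bulk samples, fewer cells of a type and less RNA per cell cannot be told apart.

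Macrophage markers were abundant in both fractions. The 37 measured macrophage identity genes had a median signal of 4727 and 4895 in JQ1 macrophage libraries and 3692 and 3781 in JQ1 T cell libraries. Under vehicle it was 4658 and 5709 in macrophage libraries and 4541 and 5238 in T cell libraries. Abundant macrophage transcripts were thus shared by the vehicle T cell libraries and not particular to those under JQ1. Epithelial markers differed widely: 11 genes summed to 4381 and 5276 in JQ1 macrophage libraries and to 87050 and 82580 in JQ1 T cell libraries, against 4458 and 5492, and 17810 and 22730, under vehicle. The sum was mostly Cxcl15 in JQ1 T cell libraries and mostly Cdh1 in JQ1 macrophage libraries. By median signal the 11 genes had 36.5 and 68.35 in JQ1 macrophage libraries, against 1351 and 1463 in JQ1 T cell libraries. The result below therefore sets a macrophage fraction against a fraction rich in macrophage and epithelial transcripts and poor in T cell transcripts. The part of such transcripts in each gene's difference was not tested. Since T cell transcripts were low in both JQ1 T cell libraries, no value of this fraction without such libraries exists.

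**Figure D1:**
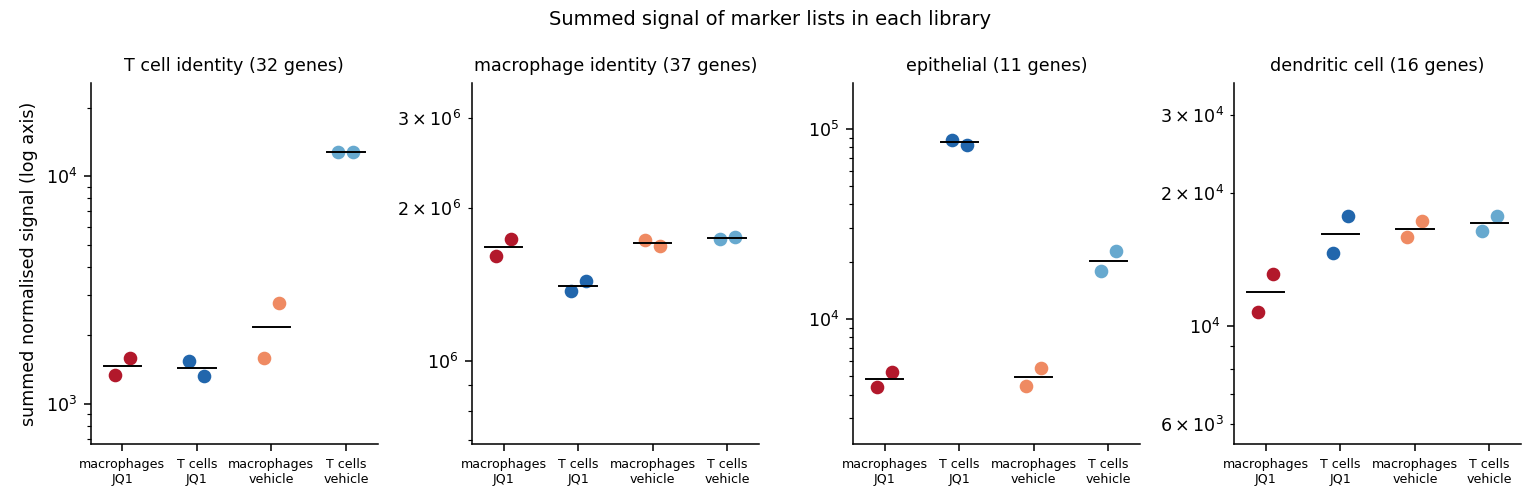
Summed normalised signal (log axis) of 4 marker lists in each library, with JQ1 macrophages, JQ1 T cells, vehicle macrophages and vehicle T cells from left to right; points are libraries and lines are means of 2. T cell identity genes summed to 1334 and 1594 in JQ1 macrophage libraries and 1538 and 1328 in JQ1 T cell libraries, against 12830 and 12760 in vehicle T cell libraries, while epithelial genes were highest in JQ1 T cell libraries. Sums are led by the brightest members: 4 and 6 T cell identity genes exceeded 20 in JQ1 macrophage libraries, against 10 and 10 in JQ1 T cell libraries. The epithelial sum was mostly Cxcl15 in JQ1 T cell libraries and mostly Cdh1 in JQ1 macrophage libraries.

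Estimated counts above background were 1542100 and 1499000 in JQ1 macrophage libraries and 2082200 and 2013400 in JQ1 T cell libraries, and 508 to 571 genes exceeded 20. Replicates differed with an SD of 0.883 (log2, over genes) in JQ1 macrophage libraries and 0.895 in JQ1 T cell libraries, against 1.63 to 1.80 between a macrophage and a T cell library under JQ1. Replicates ranked the genes with a Spearman correlation across genes of 0.97 in macrophage and 0.977 in T cell libraries, against 0.899 to 0.920 between the fractions. The 20 housekeeping genes had a median difference of 0.18, with a range of -0.55 to 0.76. With 2 libraries against 2, an exact permutation test of a single gene cannot go below 0.333, so calls come from a limma fit across all genes.

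The largest differences between the fractions were those of genes with less signal in macrophage libraries than in T cell libraries. Such a difference does not say which fraction changed, and levels of each fraction against vehicle are given further below. Of 554 genes tested under JQ1, 65 were higher in macrophage libraries (11.7%) and 88 were lower (15.9%), at a Benjamini-Hochberg adjusted p under 0.05. Of the 88 lower genes 80 differed over 2-fold and 33 over 16-fold, with a median log2 difference of -3.51. Of the 65 higher genes 15 differed over 2-fold and none over 16-fold, with a median of 0.71. Both macrophage libraries were at or below 20 for 29 of the 88 lower genes, and both T cell libraries for 6 of the 65 higher genes. Fitted sizes of these genes vary with the pseudocount, so the sizes in the 2 directions are not strictly comparable. The median of all tested genes was 0.20. Both macrophage libraries stood above both T cell libraries for 225 of the 554 genes (40.6%) and below both for 148 (26.7%), so separation of the libraries is common and says little of a single gene. The split between directions depended on scaling: 33 higher and 94 lower with housekeeping scaling, 203 and 84 with each library centred on its median, and 110 and 70 with quantile normalisation. Higher calls of modest size are thus changes relative to a shift of all genes, which was 0.04, 0.52 and 0.31 (log2) under these scalings.

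Calls in the 2 directions held up differently. Of the 88 lower genes, 35 passed in each of the 11 other settings that tested them, and 29 of these also in each of the leave-out fits that tested them. Of the 29, 14 were tested in all 8 leave-out fits, among them Cxcl15, Muc1, Clu, C1qa and Itga6. Dusp4, Dpp4, Cfi, Il34, Itgb4 and Col4a1 were tested in 6 of the 8, since without either JQ1 T cell library they were not tested. Of the 65 higher genes, Ltb passed in each setting and missed in 1 leave-out fit, that without T cell replicate 2, and Flt3, tested in 6 leave-out fits, missed in the fit of all 12 libraries alone. Leaving out a JQ1 T cell library gave 5 higher and 27 lower without replicate 1, and 4 and 25 without replicate 2, with 28 of the 88 lower genes no longer tested, since fewer than 2 libraries then exceeded 20. Leaving out a JQ1 macrophage library gave 7 higher and 63 lower without replicate 1, and 4 and 76 without replicate 2. Leaving out a vehicle T cell library gave 21 higher and 70 lower. Of the 28 gene lists described below 22 had a higher member, but 5 without JQ1 T cell replicate 1, 4 without JQ1 T cell replicate 2, and 1 with all 12 libraries, so each count of higher members is to be read with this and against the 11.7% over all genes. Lists with a lower member numbered 24, and 14 and 12 without JQ1 T cell replicate 1 or 2.

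**Figure D2:**
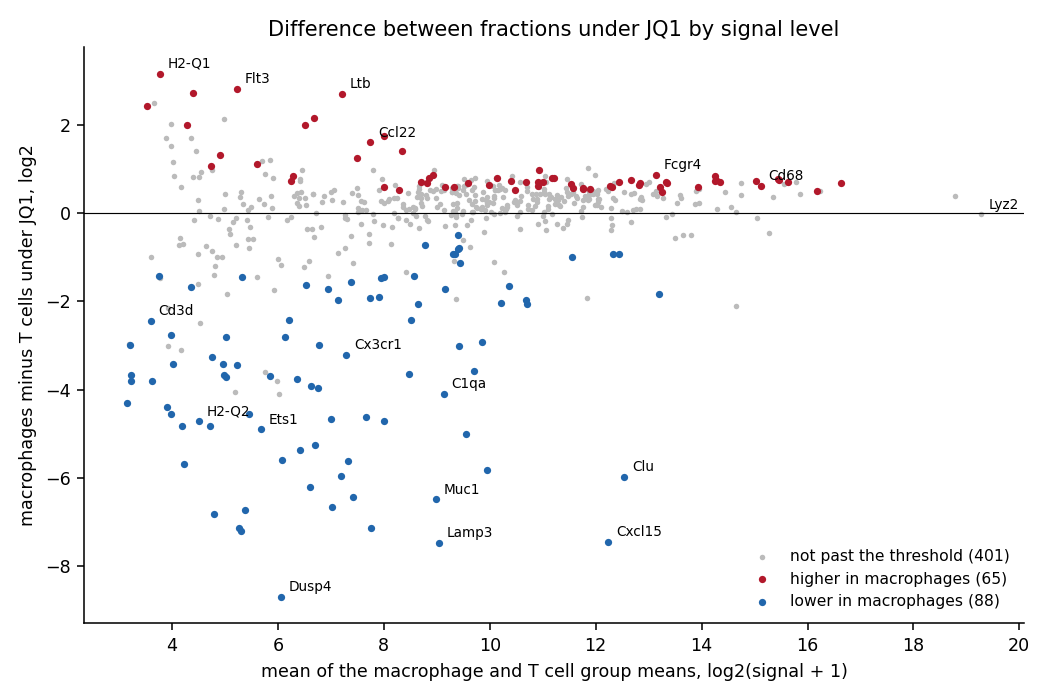
Log2 difference, macrophages minus T cells under JQ1 (vertical), against the mean of the group means on log2(signal + 1) (horizontal) for the 554 tested genes; each point is a gene. Of the 65 higher genes 15 lie above 1, up to 3.15 for H2-Q1, while the 88 lower genes reach down to -8.69 for Dusp4.

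Epithelial genes were lower in the macrophage fraction. Of 11 measured and tested members 8 were lower and none higher, with a median log2 difference of -3.81 and 1 higher at an unadjusted p under 0.05. Cxcl15, a chemokine of mouse lung epithelium, had 257 and 518 in the macrophage fraction, against 66115 and 60816 in the T cell fraction. The fractions did not overlap, and the log2 difference was -7.44 ± 0.36 (SE, limma adjusted p = 0.000236), or 173-fold lower. Muc1, a membrane mucin, had 36.5 and 75.6 in the macrophage fraction, against 4926 and 4649 in the T cell fraction. Both T cell libraries stood far above both macrophage libraries, with a difference of -6.48 ± 0.38 (SE, adjusted p = 0.000392). Epcam, the epithelial adhesion molecule, had 91.5 and 191 in the macrophage fraction, against 4468 and 4066 in the T cell fraction, a difference of -5.0. Erbb2, a receptor tyrosine kinase, had 21.7 and 27.5 in the macrophage fraction, against 693 and 601 in the T cell fraction (-4.67). Msln, which encodes mesothelin, differed by -4.61, the chemokine Cxcl5 by -3.44 and the nectin Pvrl2 by -2.92. The smallest called difference was that of Cdh1, E-cadherin, with 3534 and 3945 in the macrophage fraction, against 6852 and 7381 in the T cell fraction and a log2 difference of -0.93. Cdh1 was thus abundant in both fractions.

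The remaining 3 epithelial members missed the threshold. Dmbt1, a secreted scavenger glycoprotein, had 9.0 and 27.5 in the macrophage fraction, against 37.2 and 1463 in the T cell fraction, so that 1 T cell library alone was high. Spink5, a protease inhibitor of squamous epithelium, had 61.9 and 68.3 in the macrophage fraction, against 17.2 and 11.6 in the T cell fraction, a difference of 2.12 that did not pass (adjusted p = 0.108). Il22ra1, a chain of the interleukin-22 receptor, stood at 4.77 and 15.4 in the macrophage fraction, against 48.6 and 59.5 in the T cell fraction. Other genes known from lung epithelium lay outside the list, and of those given here Ctsh and Foxj1 were named after their values were seen. Lamp3, made by dendritic cells and by alveolar type II cells, had 21.7 and 68.3 in the macrophage fraction, against 6661 and 7318 in the T cell fraction, a difference of -7.46 ± 0.54 (SE, adjusted p = 0.000636). Ctsh, a lysosomal protease that also trims surfactant protein, had 4721 and 5234 in the macrophage fraction, against 17638 and 17742 in the T cell fraction (-1.83). Foxj1, the transcription factor of ciliated cells, was at or below 20 in both macrophage libraries and at 68.6 and 132 in T cell libraries, at least 4.59-fold lower. Lcn2, a siderophore-binding protein, had 97.9 and 174 in the macrophage fraction, against 6506 and 8407 in the T cell fraction (-5.81).

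**Figure D3:**
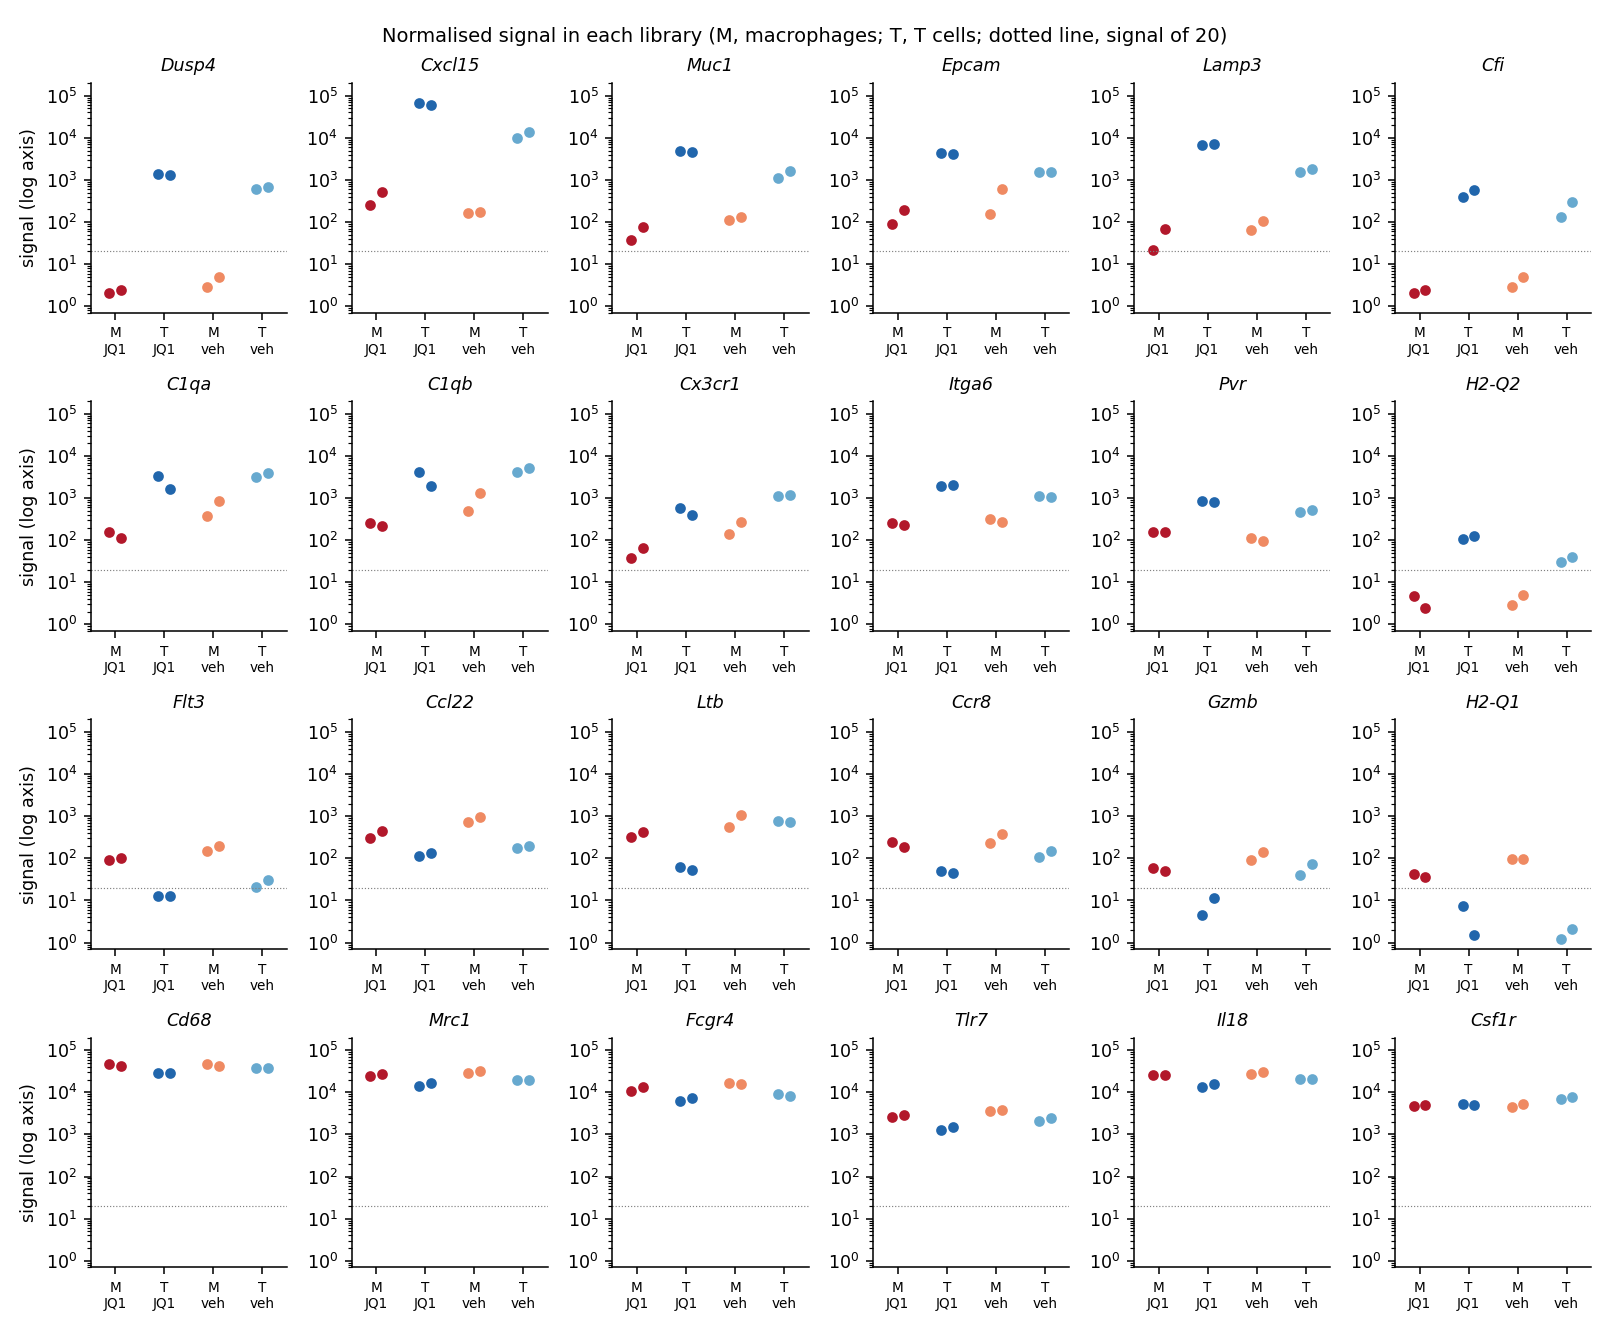
Normalised signal (log axis) of 24 genes in each library; M is macrophages and T is T cells, under JQ1 and under vehicle (veh), and the dotted line marks a signal of 20. The upper 2 rows hold genes lower in the JQ1 macrophage fraction, such as Dusp4 and Cxcl15; the lower 2 rows hold genes higher there, such as Flt3 and Cd68, and Csf1r, which did not differ beyond its spread.

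Of 34 measured adhesion genes 28 were tested, 5 were lower and 4 higher, with a median of 0.05. These shares are near those over all tested genes (15.9% lower and 11.7% higher), so the members are given as single genes. Itgb4 and Itga6 form the laminin receptor of epithelial hemidesmosomes. Itgb4 had 1.0 and 2.41 in the macrophage fraction, against 271 and 312 in the T cell fraction, at least 13.9-fold lower (adjusted p = 0.00203). Itga6 had 250.2 and 232 in the macrophage fraction, against 1892 and 2016 in the T cell fraction, a log2 difference of -3.01 ± 0.15 (SE). Both macrophage libraries were low in each. Itga2, a collagen receptor chain, was at least 39.8-fold lower, and Alcam, an adhesion molecule of the immunoglobulin family, differed by -2.07. Pecam1, an adhesion molecule of endothelium and leukocytes, had 2.12 and 2.41 in the macrophage fraction, against 129.9 and 34.8 in the T cell fraction, at least 3.26-fold lower. Among the higher members were leukocyte genes: Itgb2, the chain shared by the leukocyte integrins, had 25865 and 27306 in the macrophage fraction, against 15725 and 17068 in the T cell fraction (0.70), and Selplg, the selectin ligand, differed by 0.75. Cd9, a tetraspanin, had 88994 and 87428 in the macrophage fraction, against 61990 and 62453 in the T cell fraction (0.50).

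Stromal and endothelial genes were lower for 4 of 15 tested members, of 25 measured, and higher for 1, with a median of -0.77. This count of lower members, like that of every list, is to be read against the 15.9% lower over all tested genes. Col4a1, a basement membrane collagen, had 9.0 and 15.4 in the macrophage fraction, against 1497 and 1124 in the T cell fraction, at least 61.8-fold lower (fitted difference -6.66, adjusted p = 0.000236). Cd34, a progenitor and endothelial marker, had 2.65 and 20.2 in the macrophage fraction, against 173 and 71.9 in the T cell fraction. The growth factor Vegfa had 859.6 and 809 in the macrophage fraction, against 3932 and 2731 in the T cell fraction (-1.97). Col1a1, a fibroblast collagen, was too low to be tested, at 2.12 and 2.41 in the macrophage fraction, against 51.5 and 17.8 in the T cell fraction. The member higher in macrophages was Twist1, a mesenchymal transcription factor, with 169.8 and 189 in the macrophage fraction, against 65.7 and 30.1 in the T cell fraction and a difference of 1.98. Summed, the 25 genes reached 5798 and 6916 in the macrophage fraction, against 18580 and 13000 in the T cell fraction.

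Complement genes were lower in the macrophage fraction for 11 of 20 tested members (31 measured) and higher for none, also at an unadjusted p under 0.05, with a median of -1.90, or -0.81 with genes at or below 20 in 1 fraction held at their bound. The count of 11 was 4 without JQ1 T cell replicate 1, 5 without JQ1 T cell replicate 2 and 7 with all 12 libraries. Among the regulators, Cfi, the protease that inactivates C3b, had 2.12 and 2.41 in the macrophage fraction, against 397 and 570 in the T cell fraction, at least 22.7-fold lower (adjusted p = 0.000392). Clu, the secreted chaperone clusterin, which blocks the terminal complex, had 447 and 1254 in the macrophage fraction, against 43421 and 51297 in the T cell fraction, a difference of -5.98 ± 0.63 (SE, adjusted p = 0.00234). Cd55, which speeds decay of convertases, had 11.1 and 22.6 in the macrophage fraction, against 646 and 643 in the T cell fraction (-5.25). Serping1, the C1 inhibitor, was at least 1.58-fold lower.

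Of the terminal components, C6 had 1.0 and 2.41 in the macrophage fraction, against 106 and 169 in the T cell fraction and Hc, which encodes C5, 11.1 and 1.01 in the macrophage fraction, against 88.5 and 217 in the T cell fraction. The initiators C1qa and C1qb, known products of macrophages, were also lower in the macrophage fraction. C1qa had 159 and 114 in the macrophage fraction, against 3318 and 1603 in the T cell fraction, and C1qb had 263 and 219.9 in the macrophage fraction, against 4204 and 1965 in the T cell fraction. The T cell libraries were the higher in both, with log2 differences of -4.09 ± 0.52 and -3.57 ± 0.57 (SE). C3ar1, the receptor of the C3a fragment, had 193 and 196 in the macrophage fraction, against 1154 and 581 in the T cell fraction (-2.07), and C1s1, the C1 serine protease, was at least 1.94-fold lower. The 9 tested members that did not pass had differences of 0.21 to 0.77. They include C3, with 3602 and 5439 in the macrophage fraction, against 2439 and 4131 in the T cell fraction, and Cfb, with 2531 and 5244 in the macrophage fraction, against 1409 and 3258 in the T cell fraction, whose libraries overlapped.

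The largest single difference was that of Dusp4, a nuclear MAP kinase phosphatase, which had 2.12 and 2.41 in the macrophage fraction, against 1352 and 1347 in the T cell fraction. It stood at background in both macrophage libraries, at least 64.3-fold lower (fitted difference -8.69 ± 0.23 (SE), adjusted p = 2.77e-05). The related Dusp6, a phosphatase of ERK, had 4006 and 4005 in the macrophage fraction, against 7286 and 8035 in the T cell fraction, a difference of -0.93. Egr1, an immediate early factor, had 2478 and 1809.6 in the macrophage fraction, against 3581 and 5020.4 in the T cell fraction (-1.0), and Nfatc2, a calcium-regulated factor, was at least 4.86-fold lower. These 4 were lower among 15 tested members of the list of immediate early genes and MAP kinase phosphatases, with none higher (1 at an unadjusted p under 0.05) and a median of 0.04, beside 15.9% lower over all tested genes. Egr1 missed the threshold in all 8 leave-out fits and Nfatc2 in 4 of the 6 that tested it, and without JQ1 T cell replicate 2 none of the 4 was called. Myc, a gene known to respond to JQ1 in many cells, had 2783 and 2635 in the macrophage fraction, against 2471 and 2423 in the T cell fraction, with a difference of 0.15 that did not pass (adjusted p = 0.556) and turned to -0.013 with housekeeping scaling.

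Dpp4, a cell-surface peptidase, had 19.6 and 15.4 in the macrophage fraction, against 2544 and 2579 in the T cell fraction, at least 122-fold lower. Pla2g1b, a secreted phospholipase, was at least 20.3-fold lower, and Dock9, an exchange factor for Cdc42, at least 54.5-fold lower. Smad3, a TGF-β effector, had 4.77 and 29.9 in the macrophage fraction, against 563 and 533 in the T cell fraction. Thbs1, which encodes thrombospondin-1, had 40.7 and 58.7 in the macrophage fraction, against 1312 and 1314 in the T cell fraction (-4.72). Igf1r and Igf2r, receptors of insulin-like growth factors, differed by -3.92 and -3.96. Tfrc, the transferrin receptor, had 557 and 605 in the macrophage fraction, against 2416 and 2372 in the T cell fraction (-2.04).

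Most macrophage identity genes did not pass the test in either direction. Of 37 measured genes 36 were tested, 9 were higher by less than 2-fold and 3 lower by more than 8-fold, while 24 did not pass, with a median of 0.45, where the median of all tested genes was 0.20. Fcgr4, an activating Fc receptor, had 10904 and 13407 in the macrophage fraction, against 6243 and 7179.8 in the T cell fraction, a log2 difference of 0.85 ± 0.17 (SE, adjusted p = 0.0218). Cybb, the catalytic chain of the phagocyte oxidase, had 54524 and 63348 in the macrophage fraction, against 31983 and 37915 in the T cell fraction (0.76). Mrc1, the mannose receptor, had 23836 and 27679 in the macrophage fraction, against 14292 and 16571 in the T cell fraction (0.74), and Cd68, a lysosomal protein, had 45974 and 42133 in the macrophage fraction, against 29305 and 28050.4 in the T cell fraction (0.62). Both macrophage libraries stood above both T cell libraries in each, by less than 2-fold.

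The count of 9 was not stable: it was 0 with the 4 JQ1 libraries alone or with all 12 libraries, 22 with median centring, 3 with quantile normalisation and 0 to 8 when a library was left out. The 3 lower genes were C1qa, C1qb and Cx3cr1, the fractalkine receptor, which had 38.6 and 65.9 in the macrophage fraction, against 578 and 391 in the T cell fraction and a difference of -3.21 ± 0.42 (SE, adjusted p = 0.00515). Markers that missed the threshold include Csf1r, the CSF1 receptor, with 4727 and 4866 in the macrophage fraction, against 5408 and 5064 in the T cell fraction. Lyz2, lysozyme, had 627879.7 and 627387 in the macrophage fraction, against 688469 and 600693 in the T cell fraction, and Marco, a scavenger receptor of alveolar macrophages, 847 and 2517 in the macrophage fraction, against 504 and 1421 in the T cell fraction. The fractions overlapped in Lyz2 and Marco, and for Csf1r the T cell libraries were slightly the higher. The log2 differences of Csf1r and Lyz2, -0.13 and -0.04, turned positive with median centring.

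Fc receptors were higher for 3 of 6 tested members, of 8 measured, and lower for none, also at an unadjusted p under 0.05, with a median of 0.46, beside 11.7% higher over all tested genes. All 3 calls were lost with the 4 JQ1 libraries alone, with all 12 libraries, without either JQ1 T cell library and without JQ1 macrophage replicate 2. Fcer1g, the signalling chain shared by Fc receptors, had 12469 and 13998 in the macrophage fraction, against 7823 and 8773 in the T cell fraction (0.67), and Fcgr3 had 11699 and 11252 in the macrophage fraction, against 8106 and 8529 in the T cell fraction (0.46). Of the kinases known to act with them, named after their values were seen, Syk had 9372 and 9188 in the macrophage fraction, against 5686 and 5845 in the T cell fraction (0.69), Btk 2628 and 2584 in the macrophage fraction, against 1492 and 1727 in the T cell fraction (0.70) and Lyn 6105 and 6035 in the macrophage fraction, against 3932 and 4075 in the T cell fraction (0.60). Each passed, but missed with all 12 libraries and in 4 (Btk) or 6 (Syk and Lyn) of the 8 leave-out fits. All 3 kinases are used by B cells as well, and Cd79a, a chain of the B cell receptor complex, stood below 6 in each JQ1 library.

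Sensors of microbial products were higher for 7 of 33 tested pattern receptors and adaptors (34 measured) and lower for 1, with a median of 0.38. Tlr7, an endosomal receptor of single-stranded RNA, had 2603 and 2846 in the macrophage fraction, against 1259 and 1528 in the T cell fraction, a difference of 0.97 ± 0.16 (SE, adjusted p = 0.0122). Tlr6, a partner of Tlr2, had 675 and 629 in the macrophage fraction, against 358 and 364 in the T cell fraction (0.85). Tlr4, the receptor of lipopolysaccharide, had 3633 and 3823 in the macrophage fraction, against 2344 and 2361 in the T cell fraction (0.66). The adaptors Ticam2, Mavs and Pycard differed by 0.78, 0.78 and 0.73. Casp1, the inflammasome protease, had 2909.8 and 3354 in the macrophage fraction, against 1696 and 1897 in the T cell fraction (0.80), and its substrate Il18 had 26432 and 25930 in the macrophage fraction, against 13590 and 15630.5 in the T cell fraction (0.84). The exception was Tlr1, with 6.88 and 15.4 in the macrophage fraction, against 44.4 and 28.6 in the T cell fraction, at least 1.74-fold lower. As for macrophage markers, the 7 higher calls were 0 with all 12 libraries or without either JQ1 T cell library, 1 without either JQ1 macrophage library, 3 with housekeeping scaling and 22 with median centring.

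Dendritic cell genes were higher for 4 of 13 tested members, of 16 measured, and lower for 1, with a median of 0.52. Flt3, the receptor that dendritic cells depend on, had 93.6 and 102 in the macrophage fraction, against 13 and 13.1 in the T cell fraction. The T cell libraries were both below 20, at least 4.7-fold lower than the macrophage mean (fitted difference 2.81 ± 0.23 (SE), adjusted p = 0.000954). Ccl22, a chemokine of activated dendritic cells and macrophages, had 305 and 451 in the macrophage fraction, against 111 and 134 in the T cell fraction (1.60 ± 0.25, SE). Itgae, the integrin chain CD103, had 40.7 and 34.7 in the macrophage fraction, against 17.2 and 17.8 in the T cell fraction, and Ccr7, the receptor for migration to lymph nodes, 85.2 and 126 in the macrophage fraction, against 60.03 and 54.9 in the T cell fraction. Both macrophage libraries were higher in these too. The lower member was Lamp3, described above. Xcr1, which marks cross-presenting dendritic cells, was at or below 20 in all 4 libraries.

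Genes usually tied to lymphocytes were in part higher in the macrophage fraction. Ltb, which encodes lymphotoxin beta, had 324 and 429 in the macrophage fraction, against 62.9 and 51.8 in the T cell fraction, a difference of 2.69 ± 0.34 (SE, adjusted p = 0.00482). Ccr8, a chemokine receptor of regulatory T cells, had 239.6 and 191 in the macrophage fraction, against 50.05 and 45.6 in the T cell fraction (2.14), and Cxcr3 72.5 and 68.3 in the macrophage fraction, against 25.8 and 39.4 in the T cell fraction (1.12). The list of regulatory and inhibitory T cell genes was split. Of 6 tested members (16 measured) 1 was higher (Ccr8) and 1 lower (Tnfrsf18), with 3 positive and 3 negative differences. Lag3 differed by -3.11 and did not pass (limma adjusted p = 0.0767). Gzmb, granzyme B, had 57.7 and 49.1 in the macrophage fraction, against 4.42 and 11.6 in the T cell fraction, and Ctsw, cathepsin W of cytotoxic cells, 508 and 552 in the macrophage fraction, against 199.8 and 197 in the T cell fraction. Gzmb and Ctsw were the 2 higher genes among 7 tested of 29 measured NK and cytotoxic genes, none of which was lower, also at an unadjusted p under 0.05. That list summed to 2856 and 3653 in macrophage libraries, against 1603 and 2418 in T cell libraries, and the receptor Klrb1c was at or below 20 in all 4. Cd3eap had 413 and 525 in the macrophage fraction, against 131 and 148 in the T cell fraction (1.73), and despite its name it encodes an RNA polymerase I subunit.

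Of the T cell identity genes, 7 were tested and 3 were lower in the macrophage fraction. Ets1, a lymphocyte transcription factor also found in endothelium, had 2.12 and 27.5 in the macrophage fraction, against 361 and 217 in the T cell fraction (-4.90 ± 1.01, SE, adjusted p = 0.0239). Cd3d had 6.88 and 2.41 in the macrophage fraction, against 24.4 and 30.1 in the T cell fraction, at least 1.34-fold lower, and Tnfrsf18, the GITR receptor, 9.0 and 5.82 in the macrophage fraction, against 21.5 and 20.9 in the T cell fraction. The T cell libraries exceeded 20 in these by little except for Ets1. Cd4, also made by macrophages, had 104 and 131 in the macrophage fraction, against 85.7 and 87.4 in the T cell fraction, and Il7r had 127 and 167 in the macrophage fraction, against 187 and 135 in the T cell fraction, neither of which passed. Foxp3, Pdcd1 and Ctla4 were at or below 20 in all 4 libraries.

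Genes of the B cell list were higher for 3 of 8 tested members (Cd22, Btk and Syk) and lower for 2, of 19 measured, with a median of 0.37. Cd22, an inhibitory lectin also present on some myeloid cells, had 2506 and 2423 in the macrophage fraction, against 1440.4 and 1588 in the T cell fraction (0.70). The lower members were Cd38, an ectoenzyme of many cells, with 34.4 and 13 in the macrophage fraction, against 329.6 and 269.9 in the T cell fraction, and Cd79b, with 4.77 and 13 in the macrophage fraction, against 117 and 117 in the T cell fraction, at least 5.62-fold lower. Granulocyte and mast cell genes had 1 lower member, Ceacam1, among 9 tested of 16 measured.

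Class II genes did not separate the fractions. None of 11 tested class II and presentation genes passed in limma in either direction, and 0 had an unadjusted p under 0.05, with a median of -0.11 and differences of -0.52 to 0.35. H2-Aa, a class II chain, had 16749.7 and 63514 in the macrophage fraction, against 21521 and 57614 in the T cell fraction, and Cd74, the invariant chain, 17409.8 and 66429 in the macrophage fraction, against 29349 and 73834 in the T cell fraction. Replicate 1 was low in both fractions, and the fractions overlapped. Ciita, the class II transactivator, had 68.2 and 275 in the macrophage fraction, against 148 and 262 in the T cell fraction. The sign of the H2-Aa difference, -0.11, turned with median centring and when macrophage replicate 1 or T cell replicate 2 was left out. That of Cd74 turned without either of these libraries, and that of Ciita without macrophage replicate 1 or with quantile normalisation.

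Of 16 tested class I and peptide loading genes, 17 measured, 2 were higher and 1 lower in the macrophage fraction, with a median of 0.51. The pair H2-Q1 and H2-Q2, neighbours in the Q region of the mouse class I locus, went opposite ways. H2-Q1 had 42.9 and 37.1 in the macrophage fraction, against 7.27 and 1.55 in the T cell fraction, at least 1.95-fold higher (fitted difference 3.15, adjusted p = 0.0134). H2-Q2 had 4.77 and 2.41 in the macrophage fraction, against 106 and 126 in the T cell fraction, at least 5.54-fold lower (fitted difference -4.71, adjusted p = 0.000638). Class I genes are close copies, and cross-binding of their probes was not tested. Mr1, which presents vitamin metabolites, had 2053 and 2132 in the macrophage fraction, against 1309 and 1254 in the T cell fraction (0.71), and the classical gene H2-K1 had 28154 and 42907 in the macrophage fraction, against 18682 and 25409.9 in the T cell fraction, a difference of 0.67 that did not pass (adjusted p = 0.124).

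To set H2-Q2, lower in the macrophage fraction, beside H2-K1, whose difference did not pass, the 250 bases before the RefSeq start of each gene are shown (GRCm38.p6). The window of H2-Q2 is chr17:35342057-35342306 on the plus strand, and that of H2-K1 is chr17:34000348-34000597 on the minus strand. Capitals mark matches, on either strand, to the NF-κB consensus, to GAANNGAAA (an interferon element), CCAAT and TATAAA.
H2-Q2: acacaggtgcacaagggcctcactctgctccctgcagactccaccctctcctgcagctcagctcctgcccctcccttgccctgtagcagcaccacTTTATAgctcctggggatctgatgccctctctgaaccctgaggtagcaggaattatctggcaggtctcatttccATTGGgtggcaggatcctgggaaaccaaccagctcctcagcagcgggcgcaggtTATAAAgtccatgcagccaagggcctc
H2-K1: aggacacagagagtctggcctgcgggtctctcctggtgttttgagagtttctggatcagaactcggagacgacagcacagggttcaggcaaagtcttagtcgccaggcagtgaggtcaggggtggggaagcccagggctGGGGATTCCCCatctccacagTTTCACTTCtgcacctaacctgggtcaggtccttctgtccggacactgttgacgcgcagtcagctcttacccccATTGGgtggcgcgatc
H2-K1 holds overlapping matches to the NF-κB consensus 111 and 110 bases before its start and the interferon element, on the other strand, 90 bases before it. It also has ATTGG, the CCAAT box read on the other strand. H2-Q2 holds neither of the longer motifs, while it has 1 CCAAT match on the other strand and TATAAA on each strand. Of 27025 mouse promoter windows of this length, 7.01% hold the NF-κB consensus, 6.34% the interferon element, 34.5% CCAAT and 13% TATAAA. Of the 17 measured class I and peptide loading genes 12 had a window, of which 3 held the NF-κB consensus (H2-D1, H2-K1 and H2-M3) and 4 the interferon element (these and H2-Q10). Matches to different motifs do not overlap in the windows shown. They were picked with both sequences in view, and a match is a description of letters, not of a bound site.

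Interferon-response genes showed little separation, with 1 higher and 2 lower among 38 tested (42 measured) and a median of 0.32. Mx1, an antiviral GTPase, had 51.3 and 41.9 in the macrophage fraction, against 14.4 and 22.4 in the T cell fraction (1.32). Isg20, an exonuclease, had 104 and 145 in the macrophage fraction, against 409 and 520.5 in the T cell fraction (-1.90), and Oasl1 2.12 and 2.41 in the macrophage fraction, against 40.1 and 50.2 in the T cell fraction. Of 19 tested genes of the NF-κB pathway 1 was higher and none lower, and the median was 0.20.

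**Figure D4:**
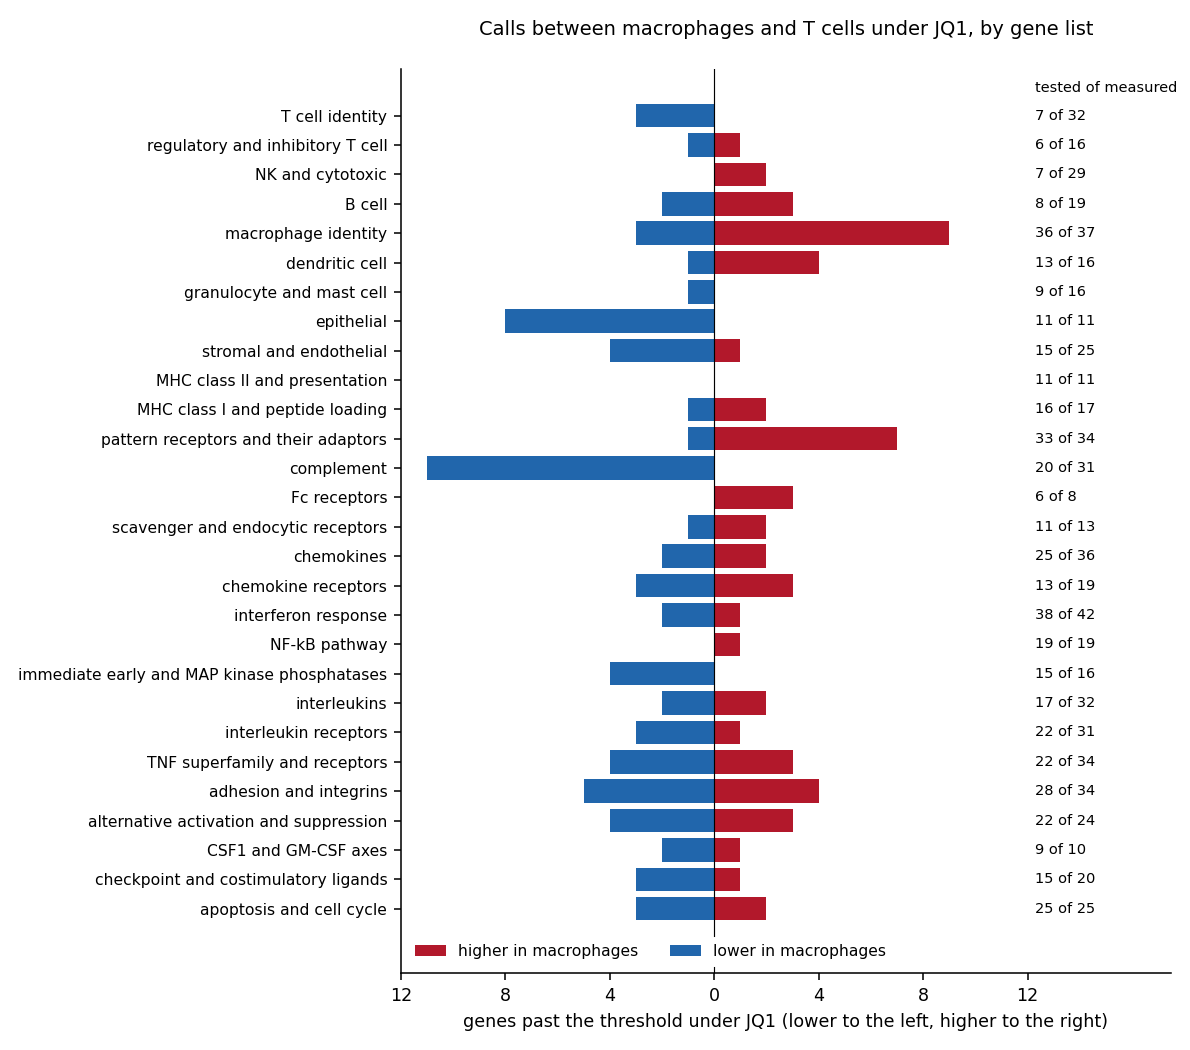
Number of genes past the threshold under JQ1 in each of 28 gene lists, lower in macrophages to the left in blue and higher to the right in red, with the number tested of the number measured beside each bar. Complement (11 lower) and epithelial genes (8 lower) have no higher gene, and macrophage identity (9 higher, 3 lower) and pattern receptors (7 higher, 1 lower) have more higher than lower genes; lists share genes.

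A few ligands are given beside their receptors, in pairs picked after their values were seen. The cytokine Il18 was higher in macrophages, whereas Il18r1, a chain of its receptor, had 13.2 and 22.6 in the macrophage fraction, against 1738 and 1436 in the T cell fraction (-6.43 ± 0.85, SE). Il34, a ligand of the CSF1 receptor, had 2.12 and 2.41 in the macrophage fraction, against 465 and 442 in the T cell fraction, at least 21.6-fold lower, while Csf1r was abundant in both fractions and did not pass (-0.13). Tnfsf12, the ligand TWEAK, had 735 and 838 in the macrophage fraction, against 495 and 559 in the T cell fraction (0.58), and its receptor Tnfrsf12a 663 and 831 in the macrophage fraction, against 2349 and 2315 in the T cell fraction (-1.65). The Tnfsf12 call was lost in all 8 leave-out fits, and that of Csf2 below in 7. Csf2, which encodes GM-CSF, had 4.77 and 25.1 in the macrophage fraction, against 61.5 and 117 in the T cell fraction (-2.81), and its receptor chain Csf2rb 9844 and 9833 in the macrophage fraction, against 6286 and 6292 in the T cell fraction, a difference of 0.65 that did not pass. Of 9 tested genes of the CSF1 and GM-CSF axes, 1 was higher (Flt3) and 2 were lower (Il34 and Csf2). Over all tested genes 11.7% were higher and 15.9% lower.

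Among chemokines 2 of 25 tested (36 measured) were higher and 2 lower. Ccl6, a chemokine of myeloid cells, had 53494 and 63425 in the macrophage fraction, against 29963 and 39002 in the T cell fraction (0.77), a call lost in all 8 leave-out fits and with housekeeping scaling or quantile normalisation. The other higher member was Ccl22, and the lower pair were Cxcl15 and Cxcl5. Chemokine receptors had 3 higher (Ccr7, Ccr8 and Cxcr3) and 3 lower of 13 tested, beside 11.7% and 15.9% over all tested genes. The lower ones include Cx3cr1 and Cmklr1, the chemerin receptor, with 25.9 and 37.1 in the macrophage fraction, against 275 and 106 in the T cell fraction. Interleukins had 2 higher, Il18 and Il19, and 2 lower, Il34 and Lif, of 17 tested. Il19, a member of the interleukin-10 family, had 32.3 and 44.3 in the macrophage fraction, against 5.84 and 13.1 in the T cell fraction, at least 1.85-fold higher. Interleukin receptors had 1 higher, Il17ra (0.54), and 3 lower of 22 tested: Il18r1, Il1r1 (-1.47) and Il3ra (-1.55). These counts too stand beside the shares over all tested genes.

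In the TNF superfamily 3 of 22 tested genes were higher (Ltb, Tnfsf12 and Tnfsf13) and 4 lower, near the 11.7% and 15.9% over all tested genes. Tnfsf13, the B cell factor APRIL, had 303 and 323 in the macrophage fraction, against 213 and 203 in the T cell fraction, whereas Tnfsf13b, the related BAFF, had 2.12 and 2.41 in the macrophage fraction, against 23 and 27 in the T cell fraction, at least 1.23-fold lower. Tnfrsf10b, a receptor of TRAIL, differed by -1.63. Ligands of lymphocyte receptors were lower for 3 of 15 tested and higher for 1, beside the same shares over all tested genes. Pvr and Pvrl2, which bind TIGIT and CD226, had 153 and 159.7 in the macrophage fraction, against 864 and 824 in the T cell fraction, and 322 and 347 in the macrophage fraction, against 2439 and 2635 in the T cell fraction. Cd276, an immunoglobulin ligand known as B7-H3, had 117 and 102 in the macrophage fraction, against 436 and 394 in the T cell fraction (-1.91 ± 0.17, SE). The fractions were far apart in all 3, while Cd274, PD-L1, had 11562 and 10088 in the macrophage fraction, against 8154 and 7098 in the T cell fraction and missed the threshold (adjusted p = 0.0591). Slamf6 was the higher member (0.80).

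Of 22 tested genes of alternative activation and suppression 3 were higher and 4 lower, near the 11.7% and 15.9% over all tested genes, with a median of -0.15. Arg1, arginase, had 197 and 49.1 in the macrophage fraction, against 2922 and 539 in the T cell fraction, a difference of -3.66 ± 0.98 (SE, adjusted p = 0.0449) that no leave-out fit kept. Pparg, the receptor that shapes alveolar macrophages, had 2277 and 2481 in the macrophage fraction, against 1440.4 and 1676 in the T cell fraction (0.61), with Mrc1 and Ccl22 the other higher members. Chil3, a chitinase-like protein, had 478487 and 561596 in the macrophage fraction, against 339415 and 464420.1 in the T cell fraction and did not pass. Apoptosis genes had 2 higher, Casp1 and Casp8, and 3 lower of 25 tested, beside the same shares over all tested genes. Bcl2, an inhibitor of apoptosis, had 11.1 and 1.01 in the macrophage fraction, against 62.9 and 42.5 in the T cell fraction, and Smad3 was lower too. Scavenger and endocytic receptors had 2 higher (Mrc1 and Cd68) and 1 lower (Igf2r) of 11 tested.

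The vehicle libraries show where the fraction difference under JQ1 departs from that in tumours of mice given vehicle. Under vehicle 615 genes were tested, of which 38 were higher in macrophage libraries (6.18%) and 113 lower (18.4%). No library is shared between the treatments, although they share a variance estimate. Of the 65 genes higher under JQ1, 21 were also higher under vehicle (32.3%; 55.3% of the 38). Of the 88 lower genes, 52 were lower under vehicle too (59.1%; 46% of the 113). The sign under vehicle was the same for 61 of the 65 and 85 of the 88. Of the 113 genes lower under vehicle, 42 were too low to be tested under JQ1 and 17 were tested and did not pass.

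Levels under JQ1 were set against those under vehicle in each fraction. Of the 88 lower genes, 54 had both JQ1 T cell libraries above both vehicle T cell libraries and 13 below, and 39 had both JQ1 macrophage libraries below both vehicle macrophage libraries and 11 above. The median difference of JQ1 minus vehicle over these 88 was -0.56 in the macrophage fraction and 0.78 in the T cell fraction. Of the 65 higher genes, 56 had both JQ1 T cell libraries below both vehicle T cell libraries and 42 had both JQ1 macrophage libraries below, and the medians were -0.24 in macrophages and -0.48 in T cells. Over all 554 tested genes the medians were -0.19 and -0.29, 82 genes had both JQ1 T cell libraries above and 283 below, and 61 had both JQ1 macrophage libraries above and 223 below. Cd68 is an example: under JQ1 it had 45974 and 42133 in the macrophage fraction, against 29305 and 28050.4 in the T cell fraction, and under vehicle 47588 and 41856 against 38097 and 38680.3. These counts describe genes chosen for their JQ1 difference and carry no test.

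The difference between the 2 contrasts was itself tested over 640 genes. It was positive, the macrophage side being higher under JQ1 than under vehicle, for 27 genes (4.22%) and negative for 9 (1.41%). Of the 27 genes 15 belong to the T cell identity list, whose tested members under vehicle were lower in macrophage libraries for 25 of 30. Only 7 of the 31 list members in the fit had at least 2 JQ1 libraries above 20, and the others needed vehicle libraries above 20 to enter. T cell transcripts close to background under JQ1 were the premise of the comparison, so the count of 15 restates it and is no separate result. Cd3e had 13.7 and 5.03 in vehicle macrophage libraries, against 432 and 563 in vehicle T cell libraries, and stood at background in all JQ1 libraries. The gap present under vehicle was thus absent under JQ1, and sizes of such genes depend on the pseudocount. Xcl1, Il2rb, Thy1, Cd3g, Pdcd1, Cd8a and Cxcr6 followed the same course.

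Of the other genes of the 27, Ltb had 559 and 1075 in vehicle macrophage libraries, against 755 and 735 in vehicle T cell libraries, where the fractions overlapped, and was lower in T cells under JQ1 (difference of contrasts 2.63 ± 0.48, SE, adjusted p = 0.0404), a call lost in 6 of the 8 leave-out fits. Ccr7 was lower in macrophages under vehicle, with 193 and 209 against 684 and 551 (-1.60), and higher under JQ1 (0.84). Itgae had 65.8 and 83.6 against 146 and 206 under vehicle (-1.21), while under JQ1 its T cell libraries were both at or below 20 and the macrophage fraction was at least 1.84-fold higher. Both genes passed in each treatment with opposite signs, but the JQ1 call of Ccr7 was lost in 6 settings, under the replicate block (adjusted p = 0.0744) and in 7 of 8 leave-out fits. That of Itgae was lost in 3 settings, a pseudocount of 20 among them, and without either JQ1 T cell library.

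For the 9 negative genes the macrophage side was lower under JQ1 than under vehicle. Muc1 had 112 and 134 against 1097 and 1621 under vehicle, a difference of -3.43, and -6.48 under JQ1 (difference of contrasts -3.05 ± 0.54, SE, adjusted p = 0.0376). Pvrl2 (-2.0), Itga6 (-1.10), Dpp4 and Il34 were lower in macrophages under both treatments. Dpp4 and Il34 stood at or below 20 in both JQ1 macrophage libraries, so the sizes of their differences of contrasts depend on the pseudocount, and that of Il34 ranged from -3.06 to -1.71 over the alternatives. These calls were lost in 2 of the 8 leave-out fits for Dpp4, in 7 for Muc1 and Il34 and in all 8 for Pvrl2 and Itga6. Cd276 and Alcam did not pass under vehicle, with differences of -0.01 and -0.48, and were lower in macrophages under JQ1. The difference of contrasts of Alcam was not past the threshold with all 12 libraries, with the replicate block or in any of the 8 leave-out fits. Raet1, a ligand family of the receptor NKG2D, had opposite signs: 441 and 479.6 in the macrophage fraction, against 870 and 881 in the T cell fraction under JQ1 (-0.93), and 388 and 466 against 285 and 259 under vehicle (0.64). No gene was called when either vehicle T cell library was left out, where genes above 20 in vehicle T cell libraries alone are not tested.

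**Figure D5:**
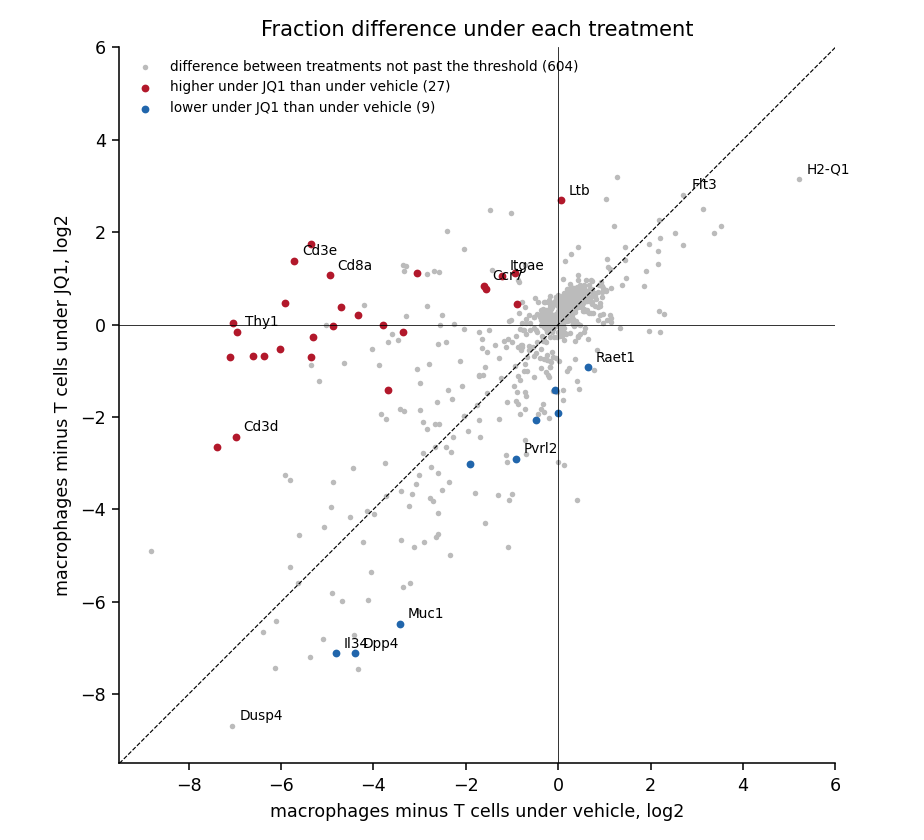
Log2 difference, macrophages minus T cells, under JQ1 (vertical) against vehicle (horizontal) for the 640 genes of the fit; red and blue mark the 27 and 9 genes whose difference between treatments passed, and the dashed line is equality. T cell genes such as Cd3e and Thy1 lie far to the left, at 1.37 and -0.15 on the vertical axis, where their JQ1 signals were at background. Muc1, Il34 and Dpp4 lie below the line.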

How the data were processed

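Signals of 770 mouse genes in 12 libraries were taken from the deposited table, which gives linear, normalised signals with a floor of 1. The authors' method of normalising the signal is not given in the labels or file headers used here, and the unit was read from the values. Low signals lie on a lattice whose step is the signal of 1 count, and dividing the total by it estimates the counts above background, the only measure of depth here.

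Log2(signal + 1) was fitted with limma 3.58.1 in R 4.3.3, with 1 mean per group over the 8 JQ1 and vehicle libraries, moderated variances and two-sided p-values, Benjamini-Hochberg adjusted at a threshold of 0.05. A gene entered where at least 2 of the 8 libraries exceeded 20 (640 genes) and was tested within a treatment where at least 2 of its 4 libraries did. The 20 housekeeping genes were not tested. The members, the 28 gene lists and the tests were chosen with earlier results of these data known. The ricolinostat libraries were left out because replicate 2 of both fractions was known to stand apart.

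Where both libraries of a fraction were at or below 20, folds are lower bounds, the brighter fraction's mean of log2(signal + 1) set against that of a signal of 20, because fitted sizes there vary with the pseudocount. Such folds understate differences of low genes.

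Named genes are the 15 largest called differences in each direction under JQ1, the 8 largest in each direction of the difference between treatments, the 4 largest in each list, all members of short lists and a set of defining markers. Some genes that this rule takes are not reported here. Other genes were named after their values were seen, among them members of a stated count or of a ligand and receptor pair. Of 770 symbols 754 matched RefSeq (GRCm38.p6) names and 10 matched by synonym or case. The older panel symbols are kept: Emr1 is Adgre1, Pvrl2 is Nectin2 and Gpr44 is Ptgdr2. Promoter windows are RefSeq's. The fit was tested on simulated data. Alternatives covered the libraries in the fit, pseudocount, filter, scaling, variance model, pairing and each library left out. Plots used Python 3.11.15 with matplotlib 3.10.9.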

Additional observations from a re-analysis of the deposited data

Results flagged for a closer look

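The difference between the fraction contrasts of the 2 treatments was tested as an interaction in limma over 640 genes, and 8 of the largest positive and 7 of the largest negative values are given here. On the positive side, where the macrophage fraction was higher relative to T cells under JQ1 than under vehicle, the values (log2) were 7.09 for Xcl1, 7.08 for Cd3e, 7.08 for Il2rb, 6.80 for Thy1, 6.39 for Cd3g, 6.38 for Pdcd1, 6.01 for Cd8a and 5.93 for Cxcr6. All 8 stood at or below 20 in all 4 JQ1 libraries, so they entered the fit through vehicle libraries alone and these sizes depend on the pseudocount. On the negative side they were -3.05 for Muc1, -2.72 for Dpp4, -2.31 for Il34, -2.0 for Pvrl2, -1.90 for Cd276, -1.59 for Alcam and -1.57 for Raet1, of which those of Dpp4 and Il34 also depend on the pseudocount. In these the JQ1 T cell libraries were above the vehicle T cell libraries, with 870 and 881 against 285 and 259 for Raet1 and 4926 and 4649 against 1097 and 1621 for Muc1. No group holds the 4 libraries that a search for outlying samples needs.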

How the results depend on the processing

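Counts under JQ1, 65 higher and 88 lower, depended on the libraries that set the variance. With only the 4 JQ1 libraries 20 were higher, and with all 12 libraries 1 was higher and 39 lower. Higher counts were 30 with no filter, 33 with housekeeping scaling, 203 with median centring, 110 with quantile normalisation and 99 with limma-trend. Leaving out 1 library gave 4 to 50 higher and 25 to 79 lower. Under vehicle, with 38 higher and 113 lower, 18 were higher with only the 4 vehicle libraries, 3 higher and 66 lower with 12 libraries, 183 higher with median centring and 119 with quantile normalisation. Leaving out 1 library gave 1 to 25 higher and 8 to 113 lower under vehicle, the fewest without a vehicle T cell library. The difference between treatments, 27 positive and 9 negative, gave 6 and 0 with 12 libraries, 43 and 18 with a pseudocount of 20, and 21 negative with quantile normalisation. Leaving out 1 library gave 0 to 29 positive and 0 to 9 negative, with 0 in both directions without either vehicle T cell library. The remaining counts stayed within 1.5 times. Where a fraction is left with 1 library, that library is assumed to vary like the other groups.

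Libraries of the same treatment whose last label numbers differ by 6 were taken as pairs in a fit with a replicate block. Within such pairs, departures from the group mean had a correlation of 0.267 under JQ1 and 0.156 under vehicle across 640 genes, over 2 pairs each, and the labels do not state a pairing. The replicate block gave 122 higher under JQ1, 60 higher under vehicle, and 7 positive and 4 negative for the difference between treatments.

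Of the named genes tested under JQ1, 7 changed sign, none of them called. Median centring gave 0.19 for Csf1r, 0.21 for H2-Aa, 0.28 for Lyz2 and 0.196 for Il7r, quantile normalisation 0.65 for Il7r and 0.30 for Ciita, and housekeeping scaling -0.013 for Myc. Leaving out 1 library gave H2-Aa -1.07 to 0.85 and Cd74 -1.42 to 0.51, both positive without T cell JQ1 replicate 2 (0.60 and 0.21) or macrophage JQ1 replicate 1. It gave Ciita -1.52 to 0.48, positive without macrophage JQ1 replicate 1, Il7r -0.36 to 0.11, positive without T cell JQ1 replicate 1 or macrophage JQ1 replicate 1 (0.069), and Lyz2 -0.13 to 0.063, positive without T cell JQ1 replicate 1. The cause was not tested. Signals near 20 rest on few counts, and whole counts were not recovered.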
